A study of Mus musculus with 5 samples.

Results

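Genes of the hypoxia response and of glycolysis were followed in the forelimb bud of E11.5 mouse embryos, on 2 arrays of embryos lacking Sost and Sostdc1 and on 3 of wild type embryos. The set was fixed by name and held 34 genes. Of these, 30 had at least 1 probe set carrying their symbol alone, with 73 such probe sets, among 18193 genes and 45037 probe sets measured in the same way. Gapdh was read apart, on manufacturer control probe sets. A further 3 Gapdh probe sets and 1 of Hk1 carried several symbols and are given no value. All Bnip3l probe sets also carried the symbol of a pseudogene and are given no value, and Gpi1 and Eno1 were not analysed here. In 22 of the 30 genes at least 2 probe sets could be compared with each other.

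The double mutant group had the genotype Sost-/-; Sostdc1-/-, and the other group was wild-type, both of background strain C57Bl/6 and both sampled as fore-limb at E11.5. Sost and Sostdc1 encode secreted antagonists of Wnt signalling, and the mutant embryos lacked both genes in every tissue as far as the labels state. RNA of embryos that the design text describes as unpooled was hybridised to 5 single-channel Affymetrix arrays. Values are given as log2 of the deposited intensity, and every difference is double mutant minus wild type on that log2 scale. A probe set was called when limma's adjusted p was under 0.05, and "higher", "rose", "lower" and "fell" are used of called probe sets.

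Cells sense oxygen through the hypoxia-inducible factors, HIFs. With oxygen present, prolyl hydroxylases of the Egln family mark the HIF alpha subunits, and the Vhl protein then directs them to degradation, so HIF activity is set largely after transcription. When oxygen is short, an alpha subunit pairs with Arnt and raises genes for vessel growth, glucose uptake, glycolysis and the diversion of pyruvate from mitochondria to lactate. Early limb buds are growing tissue in which glycolysis runs strongly and vessels are still being laid down.

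HIF dimers bind a short core, ACGTG or GCGTG, on either strand. The promoter windows of 4 called genes that hold this core are printed to show where it lies, with the core letters in capitals, read 5′ to 3′ on the strand of the gene. They come from RefSeq on GRCm38.p6 and run from 250 bases before to 50 bases after the annotated start. The windows lie at chr10:78009758-78010057, minus strand, for Pfkl, at chr9:59656977-59657276, plus strand, for Pkm, at chr2:71872974-71873273, plus strand, for Pdk1, and at chr10:59323046-59323345, plus strand, for P4ha1.
Pfkl: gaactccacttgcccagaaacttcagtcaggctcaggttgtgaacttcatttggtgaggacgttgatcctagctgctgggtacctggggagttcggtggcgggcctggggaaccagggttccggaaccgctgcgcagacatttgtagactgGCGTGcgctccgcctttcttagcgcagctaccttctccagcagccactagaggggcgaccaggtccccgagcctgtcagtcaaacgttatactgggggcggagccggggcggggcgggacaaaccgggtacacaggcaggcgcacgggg
Pkm: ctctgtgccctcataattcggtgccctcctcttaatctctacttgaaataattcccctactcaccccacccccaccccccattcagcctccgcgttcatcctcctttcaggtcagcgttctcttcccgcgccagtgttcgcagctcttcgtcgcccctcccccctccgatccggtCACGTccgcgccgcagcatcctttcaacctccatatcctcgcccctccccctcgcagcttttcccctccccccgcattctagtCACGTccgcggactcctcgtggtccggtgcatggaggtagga
Pdk1: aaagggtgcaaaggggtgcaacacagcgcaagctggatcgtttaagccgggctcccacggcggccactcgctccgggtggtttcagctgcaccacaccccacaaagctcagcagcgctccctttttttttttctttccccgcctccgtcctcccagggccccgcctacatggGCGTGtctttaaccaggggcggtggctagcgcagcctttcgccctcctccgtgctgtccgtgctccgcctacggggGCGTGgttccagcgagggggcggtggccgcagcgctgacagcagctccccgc
P4ha1: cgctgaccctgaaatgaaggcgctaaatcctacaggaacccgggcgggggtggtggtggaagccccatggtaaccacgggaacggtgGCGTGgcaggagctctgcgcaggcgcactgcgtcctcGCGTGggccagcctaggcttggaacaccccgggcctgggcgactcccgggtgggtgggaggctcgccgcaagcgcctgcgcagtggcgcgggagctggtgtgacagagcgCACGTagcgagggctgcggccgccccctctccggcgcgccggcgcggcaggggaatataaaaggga

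Of the 30 genes, 27 had such a window, and 25 of these held the core, against 12628 of 27025 genes with a window in the table (46.7%). Windows of the set were also richer in G and C, with a median of 64.3% against 52.7% over all windows, and no allowance was made for that. Pfkl held the core once, at position −99 from the start, and Pkm held it at −75 and 9. In Pdk1 it stood at −78 and −2, and in P4ha1 at −163, −126 and −16, where each position is that of the leftmost base of the core. Bnip3, which is called higher below, held it 5 times between −117 and −35, including a pair of overlapping matches on opposite strands. Hk2 held it at −226 and −52. The further windows of Pkm and Pdk1, at other annotated starts, held none. Cores thus lay in the printed windows of genes that were higher (Pdk1, P4ha1) and of genes that were lower (Pfkl, Pkm), and binding was not measured.

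Before the genes are described, several features of the arrays bear on every value. Correlations over all probe sets were 0.991 to 0.995 for pairs of the same group and 0.954 to 0.969 for mixed pairs. Dap, a bacterial poly-A RNA used as a labelling control, read 6.90 and 7.28 on double mutant arrays but only 3.23 to 3.36 on wild type arrays, so preparation and genotype cannot be told apart. Xist stood at 12.37 and 11.75 in double mutants, 12.28 in wild type replicate 1 and 5.73 and 5.70 in wild type replicates 2 and 3, while the Y-linked gene Eif2s3y was low only in wild type replicate 1 (3.20, against 8.36 to 8.49 on the other arrays). Both double mutant arrays thus carried Xist together with Y-linked signal, which no wild type array did, although the design text describes unpooled embryos. No value of the double mutant group is free of this. The limb mesenchyme markers Prrx1, Prrx2, Tbx5, Twist1, Msx1, Fgf10 and Hand2 all exceeded the median level (5.41) taken over every probe set, with 0 of 7 called. Their summed linear intensity was 14096 to 14733 in double mutants against 13786 to 14246 in wild type.

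Taking for each gene its brightest probe set, 5 of 30 genes were higher in double mutants against 2 were lower, while 23 were not called. Higher were the glucose transporter gene Slc2a3, the pyruvate dehydrogenase kinase gene Pdk1, the collagen prolyl hydroxylase gene P4ha1, the mitophagy gene Bnip3 and the hexokinase gene Hk2, and lower were Pfkl and Pkm, which encode a phosphofructokinase and pyruvate kinase. Over all 18193 genes on the same basis 6.56% were called higher and 8.14% lower, against 16.7% and 6.67% of the set. The median difference of the 30 genes was 0.02, with −0.02 over all genes. Without wild type replicate 1 the counts were 1 higher and 1 lower, and without wild type replicate 3 they were 3 and 1. Without wild type replicate 2 both were 0, as they were over all 45037 probe sets. A call lost in that fit is therefore not particular to its gene. Leaving out a double mutant array leaves 1 in that group, so single genes are given by their difference there.

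**Figure D1:**
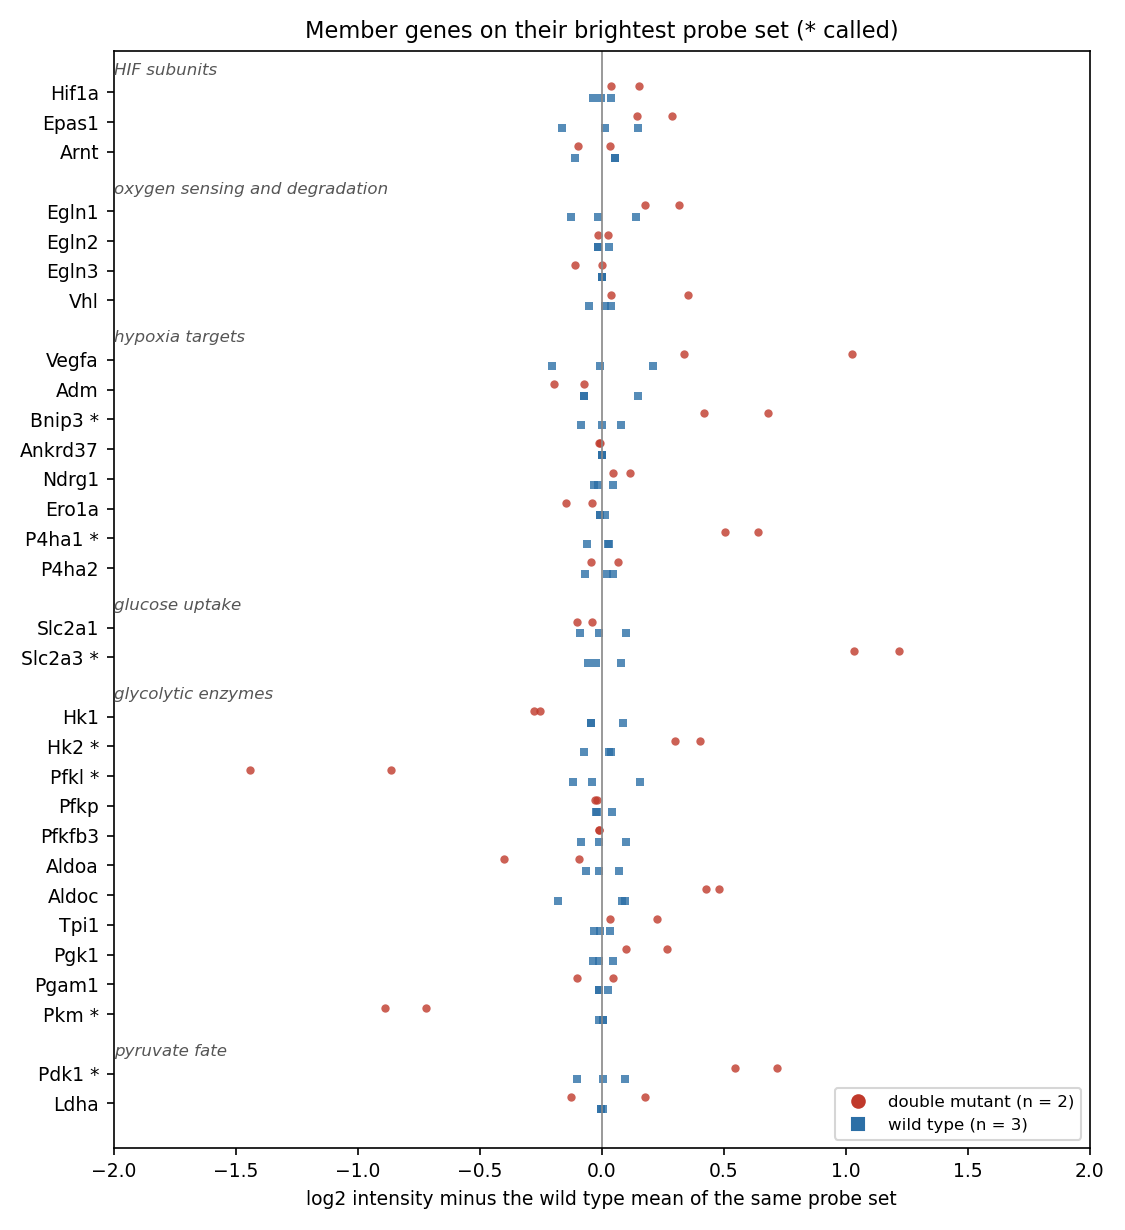
Log2 intensity of each of the 30 genes on its brightest probe set, minus the wild type mean of that probe set (horizontal axis), with 1 point per array, circles for the 2 double mutant arrays and squares for the 3 wild type arrays; genes are grouped by role and an asterisk marks a call. Slc2a3, Pdk1, P4ha1, Bnip3 and Hk2 lie to the right of all wild type arrays, and Pfkl and Pkm to the left.

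Taking all 73 probe sets changed the balance. Here 9 were higher and 17 were lower, 12.3% and 23.3% of them, against 8.70% and 9.52% of all probe sets. The lower calls came mainly from probe sets other than the brightest of their gene, where 15 of 43 were lower and 4 were higher (34.9% and 9.30%), against 15.0% and 8.66% of such probe sets over all genes. At least a 4-fold fall was called on 8 of the 73 probe sets, against 1.22% of all probe sets. The background shares of calls, here and below, include dim probe sets, with no allowance for level. In wild type, all 13 of the set's probe sets called at least 2-fold lower exceeded 5.41, the median over every probe set. When only probe sets over 5.41 were tested, whole-array calls were 3204 higher and 4369 lower, against 3919 and 4287 without that filter. The set's share of lower calls was above that of all genes on the other probe sets and close to it on the brightest ones. How far level accounts for that excess was not tested. That probe sets of Hif1a and P4ha1 disagree was known when the genes were set out. Their falls are among these counts, so the shares are a description.

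**Figure D2:**
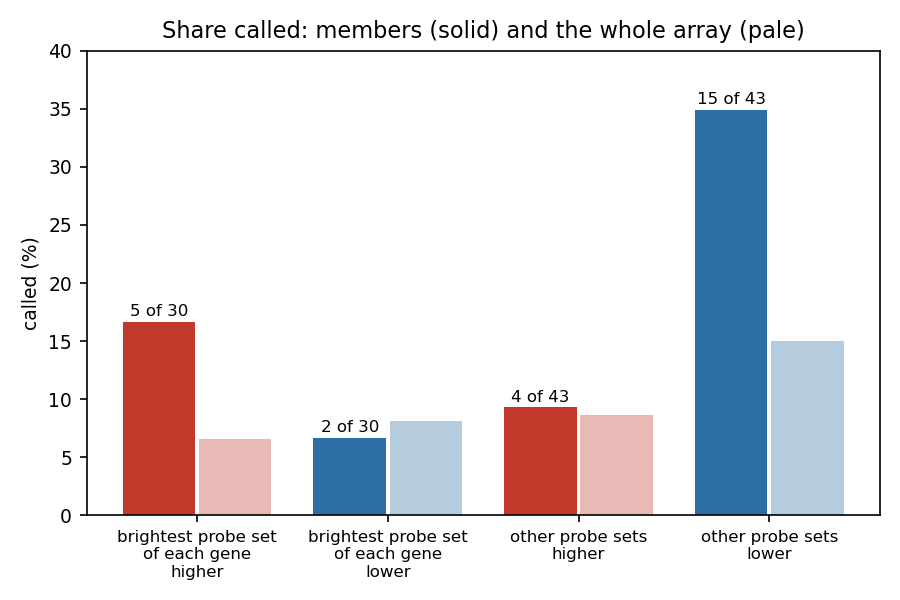
Share of probe sets called higher or lower (vertical axis, percent), for the set (solid bars, with counts) and for all genes on the array (pale bars), split into the brightest probe set of each gene and its other probe sets. The tallest bar is the 15 of 43 other probe sets called lower, beside 15.0% over all genes.

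The HIF subunit genes were not called on their brightest probe sets. Hif1a, the main oxygen-regulated alpha subunit, stood on 1427418_a_at at 11.72 and 11.83 in double mutants against 11.65, 11.68 and 11.72 in wild type (difference 0.10 ± 0.06, SE, adjusted p = 0.336). Its probe set 1416035_at gave 8.36 and 8.53 against 8.33 to 8.36, a difference of 0.10 ± 0.07 (adjusted p = 0.398). Both therefore placed Hif1a within about 0.1 of wild type. The third, 1448183_a_at, read 4.40 and 4.33 in double mutants against 9.20, 9.25 and 8.13 in wild type, a fall of 4.50 on the log2 scale (SE 0.40, adjusted p = 0.0087). That was the largest difference of the 73 probe sets, with no overlap between groups and with double mutant levels under that median. The dim 1431981_at was not called (3.71 ± 0.12 and 3.96 ± 0.34, SD).

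Arnt, the shared partner of the alpha subunits, followed the same course. Its brightest probe set, 1419996_s_at, gave 8.71 and 8.84 in double mutants against 8.69, 8.86 and 8.86 in wild type, and 1437042_at differed by −0.06 ± 0.08 (SE, adjusted p = 0.628). On 1421721_a_at the values were 4.30 and 4.58 in double mutants against 7.80, 7.79 and 7.05 in wild type, a difference of −3.11 ± 0.29 (adjusted p = 0.0091). The remaining dim probe sets of Arnt differed by −0.37 and −0.56 and were not called. Epas1, the alpha subunit best known from endothelium, differed by 0.22 ± 0.11 on 1435436_at (adjusted p = 0.287) and by −0.30 ± 0.05 on the dimmer 1449888_at, which was called (adjusted p = 0.0255). Across the 3 subunit genes 0 of 11 probe sets were higher and 3 were lower, against 8.70% and 9.52% of all probe sets.

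Among the oxygen sensors and their partner, 0 of 4 genes were called on the brightest probe set, against 6.56% of all genes higher and 8.14% lower. Over their 7 probe sets 0 were higher and 1 was lower, against 8.70% and 9.52% of all probe sets. Egln1, the main HIF prolyl hydroxylase, stood at 9.91 and 10.05 in double mutants against 9.61, 9.72 and 9.87 in wild type (0.25 ± 0.10, SE, adjusted p = 0.192). Egln2 differed by 0.01 ± 0.05 (adjusted p = 0.944). Egln3, itself a HIF target, gave 7.21 and 7.32 against 7.32 on each wild type array, and its other probe set differed by −0.49 ± 0.14 (adjusted p = 0.0898). Vhl, the substrate-recognition part of the ubiquitin ligase, stood at 9.55 and 9.23 against 9.21, 9.14 and 9.23 on 1434708_at (adjusted p = 0.312). The other Vhl probe set, 1421071_at, read 6.05 and 6.10 against 8.47, 8.42 and 8.13, a difference of −2.26 ± 0.12 (adjusted p = 0.0058). For Vhl, as for Hif1a and Arnt, the call rested on a dimmer probe set while the brightest did not move past the threshold.

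Of the 8 measured hypoxia targets outside glucose metabolism, 2 were higher and 0 lower on the brightest probe set, against 6.56% and 8.14% of all genes. Over all 17 of their probe sets 2 were higher and 6 lower, against 8.70% and 9.52% of all probe sets. P4ha1 encodes the catalytic subunit of an enzyme that hydroxylates collagen. On 1452094_at it stood at 9.79 and 9.65 in double mutants against 9.17, 9.18 and 9.09 in wild type, a rise of 0.57 ± 0.07 (SE, adjusted p = 0.0135). On 1426519_at it went the other way, with 4.77 and 4.94 against 8.42, 8.33 and 7.56, a difference of −3.25 ± 0.30 (adjusted p = 0.0093). Neither pair of groups overlapped, so P4ha1 was called in opposite directions by its only 2 probe sets. Leaving out wild type replicate 1 ended the call on 1452094_at (adjusted p = 0.0551), as did leaving out replicate 2 (0.0752), where no probe set at all was called. The difference on 1452094_at ran from 0.50 to 0.64 with any 1 array left out.

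Bnip3, a HIF target that acts in mitophagy, had 1 probe set. It read 10.52 and 10.79 in double mutants against 10.02, 10.19 and 10.11 in wild type, a rise of 0.55 ± 0.11 (SE, adjusted p = 0.0361). Groups did not overlap, but the call was lost with any wild type array left out (adjusted p = 0.107 to 0.117) and with equal array medians (0.0642). Without wild type replicate 2 no probe set at all was called. The Bnip3 difference ran from 0.42 to 0.68 with any 1 array left out. P4ha2, the paralog of P4ha1, differed by 0.01 ± 0.07 (adjusted p = 0.924), and Ankrd37, a small ankyrin-repeat target, by −0.01 ± 0.04 (adjusted p = 0.885). Double mutant and wild type arrays overlapped for P4ha2, and for Ankrd37 they lay between 7.51 and 7.52.

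Vegfa, the principal growth factor for vessels, gave a divided reading. On 1420909_at it stood at 7.03 and 7.72 in double mutants against 6.49, 6.69 and 6.90 in wild type (0.68 ± 0.25, SE, adjusted p = 0.157), and on 1451959_a_at at 5.95 and 6.04 against 7.44, 7.33 and 7.23, a called difference of −1.34 ± 0.08 (adjusted p = 0.0063). The latter was the brighter in wild type, and Vegfa was the 1 gene of 30 whose choice of probe set turns on which arrays are averaged. Ero1a, an oxidase of the endoplasmic reticulum, was not called on 1449324_at (8.94 and 9.05 against 9.08, 9.08 and 9.10). On 1419030_at it gave 5.82 and 6.04 against 8.43, 8.53 and 8.23 (−2.47 ± 0.12, adjusted p = 0.0053), and on 1419029_at it was also lower (−1.50 ± 0.30, adjusted p = 0.0388). Adm, the vasodilator peptide adrenomedullin, was dim on both probe sets, at −0.13 (adjusted p = 0.402) and −0.60 ± 0.09 (adjusted p = 0.0225). Ndrg1, a stress-response gene, differed by 0.08 ± 0.05 on its brightest probe set (adjusted p = 0.361) and by −0.92 to −0.29 on the other 4, of which 1 was called.

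Glucose enters cells through transporters of the Slc2a family. Slc2a1, the widespread basal transporter, was not called on any of its 3 probe sets (differences from −0.09 to 0.16), and the brightest read 10.92 and 10.98 against 10.93, 11.01 and 11.12. Slc2a3, a high-affinity transporter, stood on 1437052_s_at at 12.27 and 12.45 in double mutants against 11.18, 11.21 and 11.32 in wild type. That rise of 1.13 ± 0.08 (SE, adjusted p = 0.0073) was the largest among brightest probe sets of the set. On 1455898_x_at the rise was 1.16 ± 0.10 (adjusted p = 0.0082).

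The other Slc2a3 probe sets pointed down. On 1421924_at values were 3.95 and 4.45 in double mutants against 7.82, 7.73 and 6.50 in wild type (−3.15 ± 0.49, SE, adjusted p = 0.0228), and on 1427770_a_at the difference was −2.56 ± 0.43 (adjusted p = 0.0273). All 4 probe sets were called, in 2 directions. The rising ones end in _s_at and _x_at, by which Affymetrix marks probe sets that may also match transcripts of other genes, and the falling ones end in _at and _a_at. Which of them reports the main Slc2a3 transcript was not tested. Of the fits without a wild type array, that without replicate 2 lost the call on 1437052_s_at (adjusted p = 0.0597), as it did every other call. Its difference ran from 1.03 to 1.22 with any 1 array left out.

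**Figure D3:**
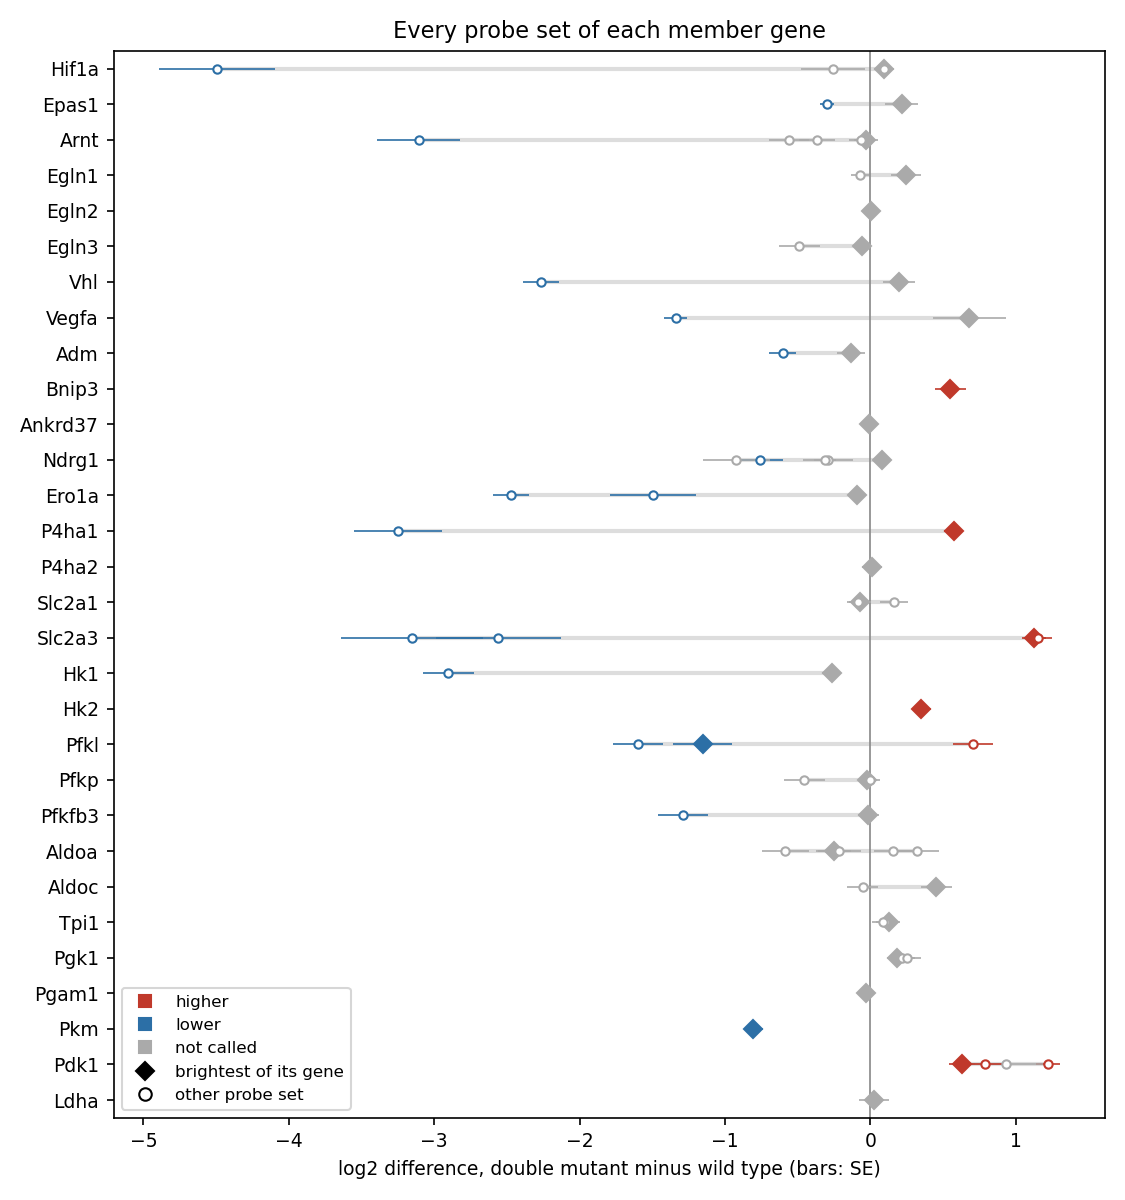
Log2 difference, double mutant minus wild type, with its SE (horizontal axis) for all 73 probe sets, 1 row per gene; diamonds are the brightest probe set of a gene, open circles its others, and colour gives the call. Brightest probe sets lie between −1.15 and 1.13, while other probe sets reach −4.50 for Hif1a.

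Along the glycolytic pathway, 1 of 11 measured enzyme genes was higher and 2 were lower on the brightest probe set (9.09% and 18.2%, against 6.56% and 8.14% of all genes). At the entry step, Hk2, the hexokinase raised by HIF, stood at 9.95 and 10.05 in double mutants against 9.58, 9.69 and 9.68 in wild type, a rise of 0.35 ± 0.06 (SE, adjusted p = 0.0332). Groups did not overlap, but the call was lost with each wild type array left out (adjusted p = 0.0805 to 0.110) and with equal array medians (0.164). Without wild type replicate 2 no probe set at all was called. The Hk2 difference ran from 0.30 to 0.40 with any 1 array left out. Hk1, the constitutive hexokinase, differed by −0.27 ± 0.06 on 1437974_a_at (adjusted p = 0.0595) and was called there when 16 was added before log2 (0.0468). On 1420901_a_at Hk1 read 4.85 and 5.25 against 8.14, 7.95 and 7.77, a called difference of −2.90 ± 0.18 (adjusted p = 0.0063).

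The phosphofructokinase step commits glucose to glycolysis. Pfkl, the liver-type subunit, stood at 9.27 and 9.85 in double mutants against 10.59, 10.67 and 10.87 in wild type on 1439148_a_at, a difference of −1.15 ± 0.20 (SE, adjusted p = 0.0309). It fell on 1450269_a_at as well (−1.60 ± 0.17, adjusted p = 0.0118) and rose on the dim 1453541_at (0.71 ± 0.14, adjusted p = 0.0369). Pfkl was thus lower on both probe sets that lay above 5.41. The call on the brightest was lost without each wild type array (adjusted p = 0.0944 to 0.133), and without replicate 2 no probe set at all was called. Its difference ran from −1.44 to −0.86 with any 1 array left out. Pfkp, the platelet-type subunit, was not called on any of 3 probe sets (−0.45 to −0.0027). Pfkfb3, whose product makes the activator of phosphofructokinase, gave 7.24 on both double mutant arrays and 7.16, 7.35 and 7.24 in wild type, and was lower on the dimmer 1456676_a_at (−1.29 ± 0.17, adjusted p = 0.0167).

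The middle of the pathway showed small differences. Aldoa, the main aldolase, had 5 probe sets with differences from −0.58 to 0.32, of which 0 were called, and double mutant replicate 1 was below replicate 2 on all of them, for instance 11.66 and 11.97 against 12.00, 12.13 and 12.05 on the brightest. Aldoc, the aldolase of nervous tissue, differed by 0.45 ± 0.11 (SE, adjusted p = 0.0551), with 7.18 and 7.23 against 6.84, 6.57 and 6.83. It was called in 2 alternatives, with quantile normalization (adjusted p = 0.0458) and when only probe sets above the median level were tested (0.0349). Tpi1, triosephosphate isomerase, differed by 0.09 to 0.13 on 3 probe sets, and Pgk1, the phosphoglycerate kinase encoded on the X chromosome, by 0.18 to 0.26 on 3. For Pgk1 double mutants lay above wild type on each, at 13.10 and 13.27 against 12.96, 13.05 and 12.99 on the brightest, with adjusted p of 0.162 to 0.173. Pgam1, phosphoglycerate mutase, differed by −0.03 ± 0.06 (adjusted p = 0.794).

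Gapdh, the dehydrogenase in the middle of the pathway, was read on 3 control probe sets placed along its transcript. The 3′ probe set stood at 13.57 and 13.62 in double mutants against 13.81, 13.83 and 13.77 in wild type. The middle one stood at 13.25 and 13.47 against 13.85, 13.87 and 13.76, and the 5′ one at 13.30 and 13.46 against 13.95, 13.93 and 13.83. Differences were thus −0.21, −0.47 and −0.52, smallest at the 3′ end, and double mutants lay below wild type on all 3. Within each array, the 3′ value of Gapdh minus its 5′ value was 0.21 ± 0.08 (SD) on 2 double mutant arrays against −0.10 ± 0.04 (SD) on 3 wild type arrays, with an exact permutation p of 0.1 (two-sided), the smallest that 2 against 3 arrays allow. For Actb, this quantity was 0.65 and 0.56 in double mutants against 0.20, 0.24 and 0.68 in wild type (exact permutation p = 0.4), so that wild type replicate 3 stood with the double mutants.

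**Figure D4:**
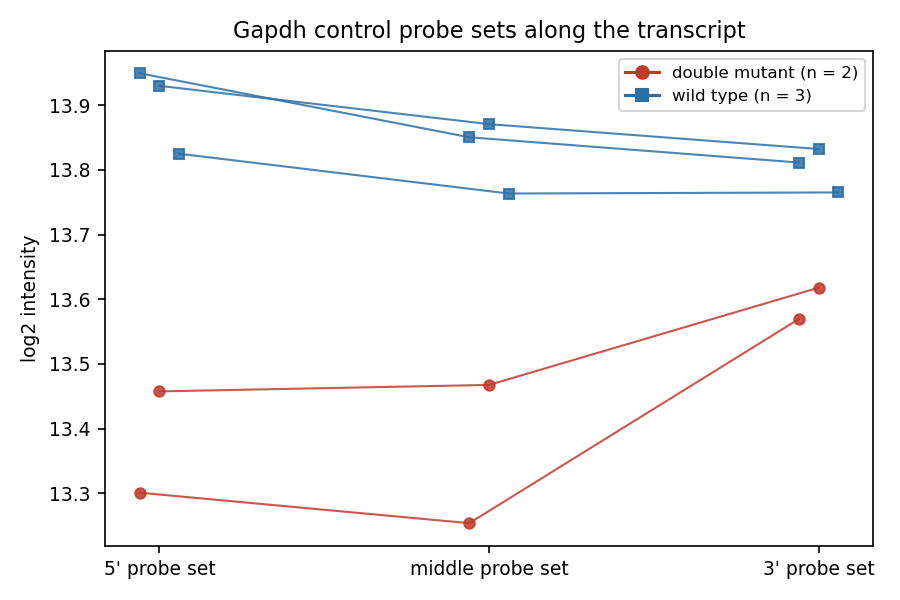
Log2 intensity (vertical axis, which does not start at 0) of the 5′, middle and 3′ control probe sets of Gapdh, with 1 line per array, circles for double mutants and squares for wild type. Double mutant arrays lie below wild type at all 3 places, with the smallest gap, 0.21, at the 3′ probe set.

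The last steps of the pathway were read on 1 probe set each. Pkm, pyruvate kinase, stood at 11.98 and 12.14 in double mutants against 12.85, 12.87 and 12.87 in wild type, a fall of 0.80 on the log2 scale (SE 0.07, adjusted p = 0.0082). Groups were far apart relative to their spread. Of the fits without a wild type array, that without replicate 2 lost the call (adjusted p = 0.0628), and there no probe set at all was called. The Pkm difference ran from −0.89 to −0.72 with any 1 array left out. Ldha, which turns pyruvate into lactate, stood at 12.48 and 12.79 against 12.60, 12.61 and 12.61 (0.02 ± 0.10, adjusted p = 0.892). Double mutant arrays lay on either side of wild type for Ldha.

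Pdk1 encodes the kinase that holds pyruvate out of the mitochondrial citric acid cycle, and all 4 of its probe sets pointed up. On 1435836_at it read 8.93 and 9.11 in double mutants against 8.29, 8.39 and 8.48 in wild type (0.63 ± 0.09, SE, adjusted p = 0.0196). On 1423748_at it read 8.77 and 8.81 against 7.45, 7.60 and 7.66 (1.22 ± 0.08, adjusted p = 0.0066), and on the dim 1434974_at 4.25 and 3.79 against 3.24, 3.20 and 3.25 (0.79 ± 0.15, adjusted p = 0.0360). The fourth, 1423747_a_at, gave 7.95 and 8.70 against 7.36, 7.27 and 7.54 and missed the threshold (0.94 ± 0.25, adjusted p = 0.0769). Groups did not overlap on any of the 4. The call on the brightest was kept without wild type replicate 3 (adjusted p = 0.0449). It was lost without replicate 1 (0.0644) and without replicate 2 (0.101), where no probe set at all was called. The difference on the brightest ran from 0.55 to 0.72 with any 1 array left out.

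Probe sets of 1 gene often disagreed. That Hif1a and P4ha1 do so was known when the genes were set out, so the shares that follow are a description. Differences within a gene spanned a median of 0.95 log2 units over the 22 genes with at least 2 probe sets, against 0.50 over 9010 such genes. Calls in both directions occurred in 3 of the 22, Slc2a3, P4ha1 and Pfkl (13.6%), against 5.05% of genes. The span was above 2 in 9 genes, namely Hif1a, Slc2a3, P4ha1, Arnt, Hk1, Vhl, Ero1a, Pfkl and Vegfa. It was 0.07 for Pgk1 and 0.04 for Tpi1.

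Of the 73 probe sets, 13 were called at least 2-fold lower, and 1 of these, for Pfkl, was the brightest of its gene. A wild type array counted as lowest only when strictly below both others, so ties lower such shares. Over all probe sets, 48.5% held a value repeated on at least 2 arrays. Wild type replicate 3 was the lowest wild type array on 11 of the 13, as on 78.8% of the 1831 probe sets of the whole array called at least 2-fold lower, against 25.3% of all probe sets. That array had the highest 3′ minus 5′ value of the wild type for Actb (0.68), for Gapdh (−0.06, below both double mutants) and for Pcx (1.84, where double mutants read 2.31 and 1.77 and the other wild type arrays 1.38 and 1.42). Distance of each probe set from the 3′ end was not known here, and its part in these falls was not tested.

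**Figure D5:**
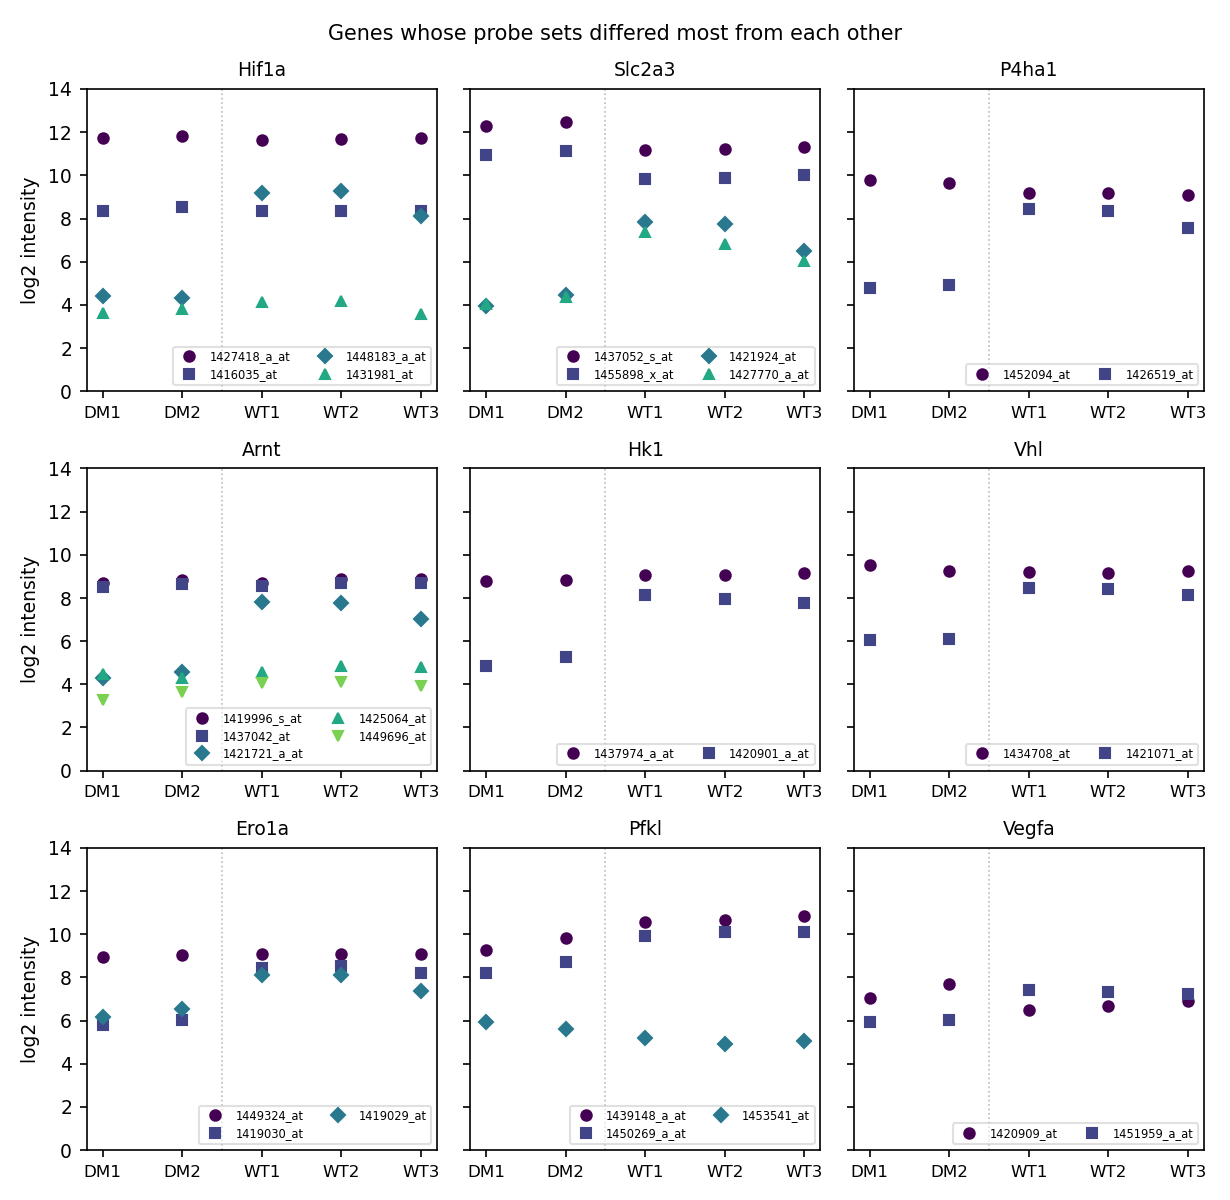
Log2 intensity (vertical axis) of every probe set of the 9 genes with the widest span, on double mutant arrays 1 and 2 (DM1, DM2) and wild type arrays 1 to 3 (WT1 to WT3). For Hif1a the brightest probe set stays between 11.65 and 11.83 on all 5 arrays, while 1448183_a_at lies at 4.33 and 4.40 in double mutants and between 8.13 and 9.25 in wild type.

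Further genes of the hypoxia pathway were counted from a list of 40 names, of which 37 were measured. On the brightest probe set 5 were higher and 4 lower (13.5% and 10.8%, against 6.56% and 8.14% of all genes), with a median difference of −0.04. Higher were Rbx1, a ring-finger subunit of the Vhl ligase (1.73 ± 0.19, SE), Wsb1, a ubiquitin ligase adaptor (1.13 ± 0.08), the adenylate kinase gene Ak4 (1.08 ± 0.14), the HIF asparagine hydroxylase gene Hif1an (0.87 ± 0.13) and the histone demethylase gene Kdm3a (0.58 ± 0.07). Ak4 rose on a further probe set (1.15) but was not called on its remaining dimmer ones (−0.39 to −0.09). Hif1an was lower on 1 of its dimmer probe sets (−1.44, adjusted p = 0.0174). Rbx1 stood at 4.66 in wild type, under the median of every probe set measured, and at 6.39 in double mutants.

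Lower were Hmox1, heme oxygenase (−1.15 ± 0.11, SE), Plod1, a collagen lysyl hydroxylase (−0.45 ± 0.09), the coactivator gene Crebbp (−0.43 ± 0.09) and the demethylase gene Kdm4b (−0.24 ± 0.05). None of the dimmer probe sets of Crebbp (−0.90 to 0.79) or Plod1 (−0.18) was called. Of a list of 39 other genes of glycolysis and pyruvate use, 35 were measured, 1 was higher and 6 were lower (2.86% and 17.1%, against 6.56% and 8.14% of all genes), with a median of −0.09. Pfkfb4, another activator-forming enzyme gene, was higher (0.53 ± 0.07). Lower were the kinase genes Pdk2 (−1.71 ± 0.18) and Pdk3 (−0.67 ± 0.07), the insulin-responsive transporter gene Slc2a4 (−0.81 ± 0.13) and the muscle-type phosphofructokinase gene Pfkm (−0.61 ± 0.07), along with 2 more at −0.49 and −0.31. The Pdk family was therefore split, with Pdk1 higher, Pdk2 and Pdk3 lower and Pdk4 not called (−0.19, adjusted p = 0.262). The phosphofructokinase genes Pfkl and Pfkm were both lower on their brightest probe sets, while Pfkp was not called. Adjusted p over the called genes of both lists ran from 0.0070 to 0.0466.

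Markers of 3 other cell types were called, beside 6.56% of all genes higher and 8.14% lower. Of 7 surface ectoderm markers 5 were higher and Krt5 and Krt14 were not called (−0.38 and 0.45), with a summed linear intensity of 5099 to 5476 in double mutants against 3337 to 3902 in wild type. Of 7 endothelial markers 4 were lower, among them Pecam1 (−1.98 ± 0.13, SE, adjusted p = 0.0066), and their sum was 1502 to 1525 against 2039 to 2184, while Cdh5, Kdr and Tek were not called (−0.06, −0.03 and −0.06). Of 6 erythroid markers 3 were lower (Hba-x, Alas2 and Slc4a1), and their sum was 44657 to 49917 against 50967 to 54622, while the embryonic globin genes Hbb-bh1 and Hbb-y differed by −0.02 and −0.01. No macrophage, myogenic or neural crest marker was called (0 of 5, 0 of 3 and 0 of 2). The sum of the macrophage markers was 512 to 632 in double mutants against 718 to 790 in wild type, without overlap. Csf1r, the brightest of them, differed by −0.63 (adjusted p = 0.0716), and the others by −0.21 to 0.15. No marker was listed at 0 on any array. Their part in the differences of the hypoxia and glycolysis genes was not tested, and in whole limb buds fewer cells of a type and less RNA per cell cannot be told apart.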

How the data were processed

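The deposited values were linear intensities, 1 per probe set and array, on Affymetrix arrays. Per the labels' protocols, RNA was amplified in 2 rounds and labelled with biotin. RMA and limma appear in the submitters' processing notes without versions. Further settings are not given in the sources used here. Array medians lay between 39.4 and 44.4, so no renormalization was done before log2 was taken. Exactly equal deposited values on at least 2 arrays occurred in 20 of the 73 probe sets studied (27.4%) and in 48.5% of all, which makes some SDs very small.

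Of 45101 probe sets, 64 manufacturer controls stayed out of the fit. Symbols came from the platform annotation. Only the 34945 probe sets with 1 symbol were named, 932 carried several and 9160 none. The brightest probe set of a gene had the highest mean log2 value over 5 arrays. The comparison of group means used limma 3.58.1 (R 4.3.3), without covariates (3 residual and 1.29 prior degrees of freedom), two-sided, with Benjamini-Hochberg adjustment over 45037 probe sets. The array number limits the precision, and p-values measure the spread between these samples. Their independence rests on the design text's statement that embryos were not pooled. Xist together with Y-linked signal on both double mutant arrays bears on that statement. The fit was tested on simulated data. Genes and lists were chosen with earlier results of these data known. All 34 genes were named by rule, and of each further list up to 4 called genes per direction with the largest difference, plus Kdm3a, named after its value was seen. Printed promoters are those of the called genes with the largest differences that have a window with the core. Cell type markers were summed on the linear scale over the brightest probe set of each gene. Alternatives were 2 normalizations, an offset, a filter on dim probe sets, another moderation, another threshold, a replicate block, other choices of probe set and each array left out.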

Additional observations from a re-analysis of the deposited data

How the results depend on the processing

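Calls depended on single arrays. With limma, 0 of all 45037 probe sets were called without double mutant replicate 1 or wild type replicate 2, where 14059 and 11115 had an unadjusted p under 0.05 (39 and 30 of the 73). Where an arm was left with 1 array, it was assumed to vary like the other group. Over the 5 fits with an array left out, counts ran from 0 to 1963 higher and 0 to 3198 lower for all probe sets, 0 to 5 and 0 to 14 for the 73 probe sets, 0 to 3 and 0 to 2 for the 30 genes, 0 to 3 and 0 to 3 for the further hypoxia genes, and 0 to 1 and 0 to 5 for the further glycolysis genes. The median of the 30 genes ran from 0.0217 to 0.0421, and the 3′ minus 5′ contrast from 0.26 to 0.37 for Gapdh and 0.14 to 0.38 for Actb (arrays left out for these 2 after seeing the data).

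With the replicate number as a block, counts higher and lower were 1022 and 1329 for all probe sets, 3 and 8 for the 73, 1 and 0 for the 30 genes (Slc2a3, adjusted p = 0.0491, with 0.0640 to 0.114 for the other 6 called genes), 1 and 1 for the further hypoxia genes and 0 and 1 for the further glycolysis genes. Nothing in the labels ties same-numbered embryos, and their deviations correlated at 0.09 and 0.12 for the 2 numbers that both groups share.

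The choice of probe set moved the count of lower calls most. For the 30 genes, counts were 3 higher and 11 lower by the mean of the probe sets of a gene, 2 and 9 of 22 by the second brightest, and 4 lower among 29 without probe sets ending in _s_at or _x_at. In the last of these Slc2a3 was read on 1421924_at and so turned from higher to lower (−3.15, adjusted p = 0.0228). The median was then −0.14 by the mean and −0.29 by the second brightest. Further hypoxia genes gave 9 lower by the mean and 3 higher and 8 lower by the second brightest, and further glycolysis genes 0 higher and 3 lower by the second brightest. Choosing the brightest by wild type arrays alone, an alternative added after seeing the data, gave 5 higher and 3 lower.

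Equal array medians shifted the median of all probe sets from −0.01 to −0.10 and left 3 of the 30 genes higher, with a median of −0.0723 against 0.0773 under quantile normalization. At an unadjusted p under 0.01 with 1.5-fold, 2 of the 30 genes were higher and 1 further hypoxia gene was lower. Further glycolysis genes called higher numbered 2 with equal medians, quantile normalization or the offset of 16, and 3 with the filter or the trend.

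Uncalled genes near 0 changed sign. Under equal medians these were Egln2 (−0.0844), Ldha (−0.0658), Ndrg1 (−0.00865) and P4ha2 (−0.0789), and under quantile normalization Ankrd37 (0.0729), Arnt (0.0225), Egln3 (0.0294), Pfkfb3 (0.0701) and Pfkp (0.0231). Egln2 stood at −0.00085 with the block. With arrays left out, ranges were −0.0962 to 0.0332 for Arnt, −0.0144 to 0.0270 for Egln2, −0.108 to 0 for Egln3, −0.128 to 0.178 for Ldha, −0.0445 to 0.0682 for P4ha2, −0.0558 to 0.0370 for Pfkfb3 and −0.102 to 0.0463 for Pgam1. The cause of these changes was not tested, and low signal limits the dim probe sets.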
